A study of Mus musculus with 12 samples.

Results

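The Eya, Six-family and Dach genes encode a set of developmental transcriptional regulators, and 8 of them were followed here: Eya1, Eya2, Eya3, Eya4, Six2, Six4, Six5 and Dach1. They are 8 of the 25514 mouse genes in the count tables. The set was chosen from values of these same data, because Eya4 was below 2% of its control level in proximal tubule (PT) cells without the type II TGF-β receptor, TβRII. Differences between the genotypes are therefore given as descriptions without a test, and tests are given for the response to H2O2, which the choice did not use.

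Eya proteins carry a protein phosphatase domain and have no DNA-binding domain of their own. They act as coactivators once they are bound to Six-family proteins, which are homeodomain factors that recognise DNA. Dach proteins, relatives of the Ski corepressors, join these complexes and restrain them. In the developing kidney, Eya1 acts early in the mesenchyme that signals to the ureteric bud, and Six2 keeps nephron progenitors undifferentiated. Tgfbr2 encodes TβRII, the receptor that binds TGF-β ligands and starts signaling to Smad factors.

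RNA was sequenced in 12 libraries, 3 for each of 4 groups. All cells came from male mice that carried the Immorto-mouse transgene, a heat-labile T antigen that permits growth at the lower temperature, and floxed Tgfbr2 alleles, and they were conditionally immortalized PT cells moved to 37 °C for 5 days. The genotypes are H2ts6;Tgfbr2fl/fl (TβRIIflox/flox PT cells) and H2ts6;Tgfbr2-/- (TβRII-/- PT cells, made from the former by adenoviral Cre in culture). Each genotype was sequenced in normal medium and after 24 h of H2O2 in serum-free medium, so the treated groups differ from the untreated ones in both H2O2 and serum. The labels give the dose as 200 mM and the methods give it in μM. Genotype and cell line cannot be told apart, since each genotype is 1 line. No label says that libraries came from separate cultures, so p-values measure the spread between these libraries, which may be technical.

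The counts used here, 1 transcript per gene, summed to between 15870155 and 20857618 per library. Levels are normalized counts, scaled to a library of 17351835 counts. The first principal component held 81.5% of the variance. Tgfbr2 itself was at 7562 to 9248 normalized counts in untreated TβRIIflox/flox PT cells and at 6358 to 6782 in untreated TβRII-/- PT cells. Its count covers the whole transcript and does not resolve a deleted exon, so it checks the genotype labels only weakly. Of 14 proximal tubule markers, 8 or 9 were over 3 normalized counts in each group, among them Lrp2, Aqp1, Pax8 and Cdh16. Slc34a1, Slc22a6, Slc22a8 and Hnf4a, which define mature proximal tubule, were at or under that level in every group. The summed proximal tubule list lay between 39997 and 55702 in all libraries, but its members differed between the untreated genotypes in both directions. Lrp2, an endocytic receptor, had means of 17279.8 in TβRIIflox/flox and 11016 in TβRII-/- PT cells. Cubn, its partner, had means of 123 and 52.0, Ggt1 of 75.8 and 7.61, and Slc5a2 of 14.8 and 0. Cdh16, the kidney cadherin, went the other way, at 10306 and 21439. The part of these markers in the genotype differences was not tested. Skeletal muscle and myoblast markers, which matter because Eya and Six-family genes are also active in muscle, summed to at most 11.8, and Myod1 and Myf5 were at 0 throughout.

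No protein of these genes was printed here for want of a sequence table, but short stretches before an annotated start of 3 expressed members show where letters known to be read by Smad and Six-family factors lie. RefSeq promoter windows on GRCm38.p6 were found for 6 of the 8 members, and the 250 bases before each start were searched on both strands. The core of a Smad box was searched as CAGAC, and the core of the MEF3 element, a sequence that Six-family proteins bind, as TCAGGTT. Capitals mark the match, written 5′ to 3′ on the strand of the gene.
Eya3, chr4:132638915-132638944 (+): tcacgcaactggGTCTGcgaggtgggcggg
Six5, chr7:19094466-19094495 (+): cagggacaaggaCAGACccgagtgcagagc
Six4, chr12:73113324-73113353 (-): ggcctgggggaAACCTGAtcggccagatcc
The matches begin 119, 66 and 97 bases before the start. CAGAC was held by 42.2% of 32851 mouse promoter windows of this length, and by those of Eya3, Six2, Six5 and Dach1. TCAGGTT was held by 3.49% of all windows and, among the members, by that of Six4. Neither was in the 2 windows of Eya4, and the Smad palindrome GTCTAGAC, held by 0.167% of windows, was in no member. TGANTCA, the AP-1 sequence, was in 6.75% of windows and in that of Six5, while GGAATG, the core read by TEAD factors, was in 12.6% and in no member. In the newer GENCODE M39 annotation all 250 bases of both Eya4 windows and of the Six5 and Six2 windows lie inside an exon of a longer transcript of the same gene, as do 211 bases of the Six4 window with the match and 59 of the Eya3 window. All 30 printed bases of Six5 and of Six4 are exonic there and none of Eya3, so these windows need not lie before the start in use. A second window of Six4 held no TCAGGTT.

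Eya4 was the most abundant Eya gene in TβRIIflox/flox PT cells and had 20 to 36 reads in each library of TβRII-/- PT cells. It lies on chromosome 10 (23102962-23350838, minus strand, GRCm38.p6). In untreated TβRIIflox/flox PT cells it was at 1947, 1796 and 1893 normalized counts in replicates 1, 2 and 3, and in untreated TβRII-/- PT cells at 37.6, 27.1 and 21.1. After H2O2 it was at 1497, 1618 and 1649 in TβRIIflox/flox PT cells and at 22.2, 15.7 and 27.8 in TβRII-/- PT cells. No library of 1 genotype came near those of the other. The untreated difference was -6.04 ± 0.12 (log2, SE), which is 66.0-fold and leaves 1.52% of the level in TβRIIflox/flox PT cells. With H2O2 it was -6.20 ± 0.12, leaving 1.36%. These SEs were derived from edgeR's F statistic, and those by DESeq2 were larger, at 0.17 untreated and 0.18 with H2O2. A log2 difference of -5 or lower was met by 45 of the 12971 genes tested, 0.347%. In RNA from whole cultures, fewer cells that express a gene and less RNA per cell cannot be told apart.

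The low level of Eya4 was shared by its annotated transcripts. The files count a read on each transcript that it overlaps, so these values are not independent. The transcript that stands for the gene, ENSMUST00000092665 with 19 exons, had 5225 reads over the 3 untreated TβRIIflox/flox libraries and 86 over the 3 untreated TβRII-/- libraries. ENSMUST00000220299 had 3671 and 65 reads, and ENSMUST00000219315 had 2850 and 51. These 3 long transcripts were at 1.65%, 1.77% and 1.79% of their TβRIIflox/flox counts, before scaling for library size. A short transcript, ENSMUST00000218049, went from 391 reads to 0 in these untreated libraries, where a count of 0 allows up to 3 reads. With H2O2 it had 324 reads over the 3 TβRIIflox/flox libraries and 11 over the 3 TβRII-/- libraries.

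Eya2 showed the opposite pattern. In untreated TβRIIflox/flox PT cells it was at 2.10, 7.79 and 3.23 normalized counts (2, 7 and 3 reads), and in untreated TβRII-/- PT cells at 190.3, 203 and 219. With H2O2 it was at 6.09, 10.3 and 4.58 in TβRIIflox/flox PT cells and at 229.8, 250.03 and 253 in TβRII-/- PT cells. The libraries of the genotypes did not overlap. The untreated difference was 5.52 ± 0.25 (log2, SE; 95% interval 5.04 to 6.01), or 46.0-fold, and with H2O2 it was 5.08 ± 0.22. Without replicate 2 of untreated TβRIIflox/flox PT cells, the library with 7 reads, the untreated difference was 6.19, above that interval. This shows how few reads set the size of the difference. The SE and interval were derived from edgeR's F statistic and may be too narrow here. A log2 difference of 5 or more was met by 1.33% of genes tested. The short Eya2 transcript ENSMUST00000128280 had 0 reads in all 6 TβRIIflox/flox libraries and 80 over the 3 untreated TβRII-/- libraries.

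Eya1 was higher in TβRII-/- PT cells and Eya3 was nearly level. Eya1, the family member needed for kidney formation, was at 173, 139 and 158 normalized counts in untreated TβRIIflox/flox PT cells and at 312, 304 and 326 in untreated TβRII-/- PT cells. The groups did not overlap, and the difference was 1.002 ± 0.12 (log2, SE). Eya3, the most evenly expressed of the family here, was at 869, 881 and 899 normalized counts in untreated TβRIIflox/flox PT cells and at 836, 829 and 836 in untreated TβRII-/- PT cells. These ranges did not overlap either, but the difference was only -0.08 ± 0.06. With H2O2 the Eya1 difference was 0.91 ± 0.11 and that of Eya3 was 0.07 ± 0.06.

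**Figure D1:**
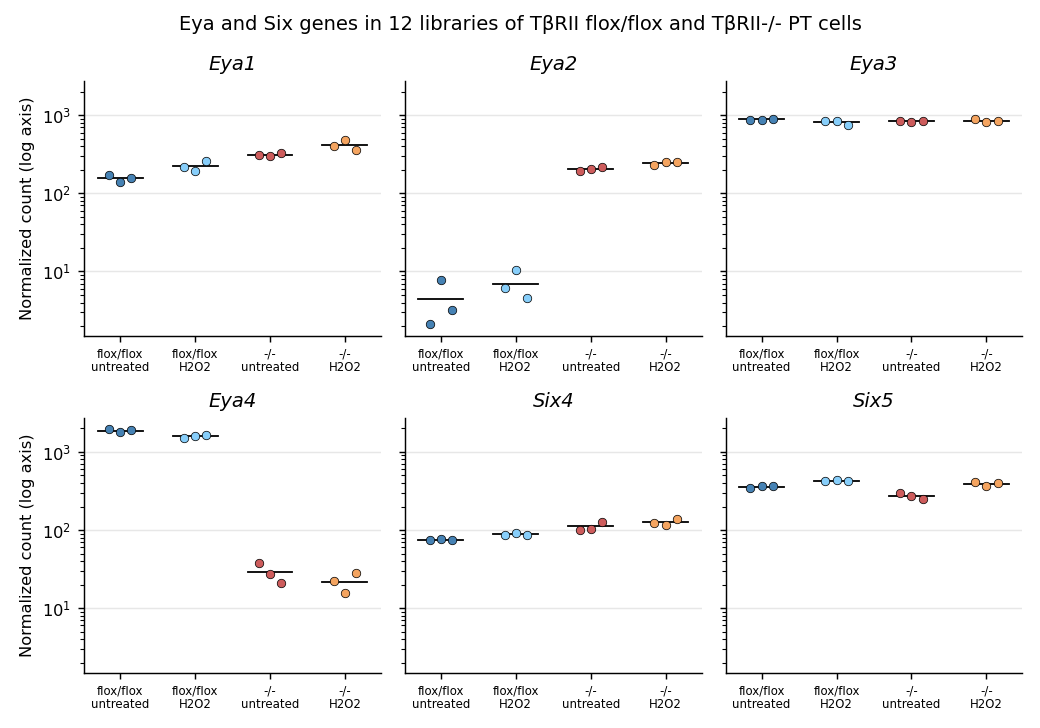
Normalized counts (log axis) of 6 members in the 3 libraries of each group (points), with the group mean as a line. Eya4 is between 15.7 and 37.6 in the 6 TβRII-/- libraries and at 1497 or more in the 6 TβRIIflox/flox libraries, Eya2 shows the reverse, and Eya3 is within 759.8 to 899 in all 12.

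Per kilobase of transcript, a scale on which genes can be compared with each other, the Eya family differed between the lines in both makeup and sum. The summed level was 539 ± 15.7 normalized counts per kb (SD, n = 3) in untreated TβRIIflox/flox PT cells, and it was 317 ± 6.94 in the untreated TβRII-/- line. Eya4 made up 62.2% ± 0.783 of this sum in the former and 1.62% ± 0.500 in the latter. The share of Eya2 went from 0.334% ± 0.240 to 26.2% ± 1.35, that of Eya1 from 6.66% ± 0.529 to 22.7% ± 0.403, and that of Eya3 from 30.8% ± 1.09 to 49.5% ± 0.978. With H2O2 the sums were 490 ± 11.8 and 359 ± 11.5 per kb, and Eya4 made up 57.9% ± 1.55 and 1.10% ± 0.334 of them. These shares restate the genotype values by which the genes were chosen.

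The order of the genes by level per kb was thus different in the 2 lines. In untreated TβRIIflox/flox PT cells it ran Eya4 (335), Eya3 (166), Six5 (119), Eya1 (35.9), Six4 (11.8) and Eya2 (1.78), and no neighbours in this order overlapped. In untreated TβRII-/- PT cells the order ran Eya3 (157), Six5 (91.3), Eya2 (83.0), Eya1 (72.1), Six4 (17.4) and Eya4 (5.11). Here the libraries of Six5 and Eya2 overlapped. After H2O2, Eya3 and Six5 overlapped in TβRIIflox/flox PT cells, as did Eya2 and Eya1 in TβRII-/- PT cells.

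**Figure D2:**
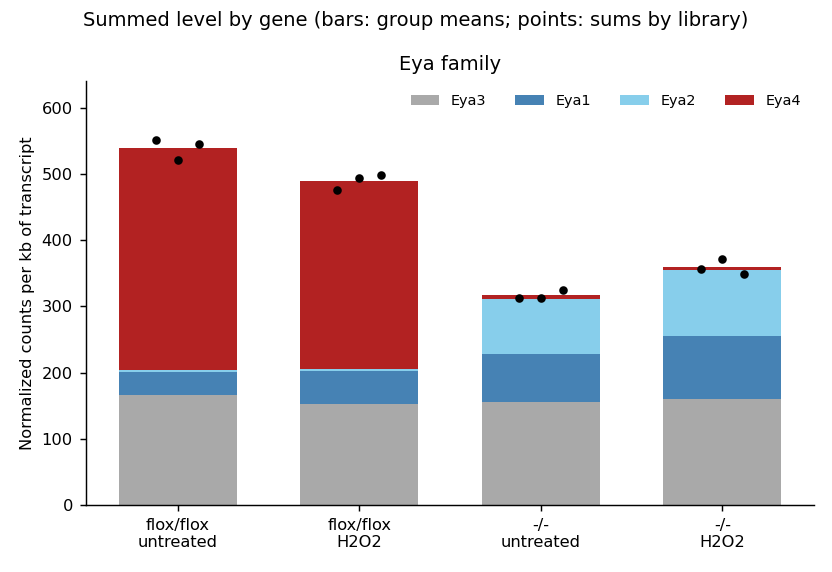
Summed level of the Eya genes in normalized counts per kb of transcript, with bars split by gene at the group means and points for the sum in each library. Without treatment the Eya sum is 539 in TβRIIflox/flox and 317 in TβRII-/- PT cells, and the Eya4 part almost vanishes in the latter.

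Six4 and Six5 differed less between the genotypes than Eya2 and Eya4 did. Six4, a widely expressed partner of Eya proteins, was at 74.7, 76.8 and 75.3 normalized counts in untreated TβRIIflox/flox PT cells and at 101, 104 and 128 in untreated TβRII-/- PT cells, without overlap. The difference was 0.56 ± 0.15 (log2, SE), and 0.44 without replicate 3 of untreated TβRII-/- PT cells, the highest of that group. Six5, a member that lies next to Dmpk in the genome, was at 344, 365 and 367 normalized counts in the former and at 300.1, 272 and 252 in the latter, a difference of -0.39 ± 0.09. With H2O2 the differences were 0.51 ± 0.14 for Six4 and -0.11 ± 0.08 for Six5. Exons of another gene on the opposite strand cover 6.95% of the Six5 transcript, and less than 1% or none of the other members' transcripts.

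Six2 and Dach1 were not detectable at this depth. Six2, the marker of nephron progenitors, had 1 read in 3 of the 12 libraries and 0 in the other libraries. Dach1 had 1 read in each of the 3 TβRIIflox/flox libraries with H2O2 and 0 elsewhere. A count of 0 allows up to 3 reads per library, for counting error only. Neither gene passed the filter on low counts, so 6 of the 8 members entered the fit. Their relatives Six3, Six6 and Dach2 had between 0 and 3 reads in every library.

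In the untreated comparison of genotypes, Eya1 and Eya2 were higher and Eya4 was lower by at least 1.5-fold, as they were with H2O2. No test is given for the members here. Over all genes tested, 28.0% passed an adjusted p of 0.05 by edgeR and a 1.5-fold change untreated (16.3% higher and 11.8% lower). With H2O2 the share was 30.7%. The libraries of the genotypes did not overlap for 6 of 6 members untreated (65.3% of all genes) and for 5 of 6 with H2O2 (71.0%). The choice of the members used this comparison, so nothing is read from these counts.

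**Figure D3:**
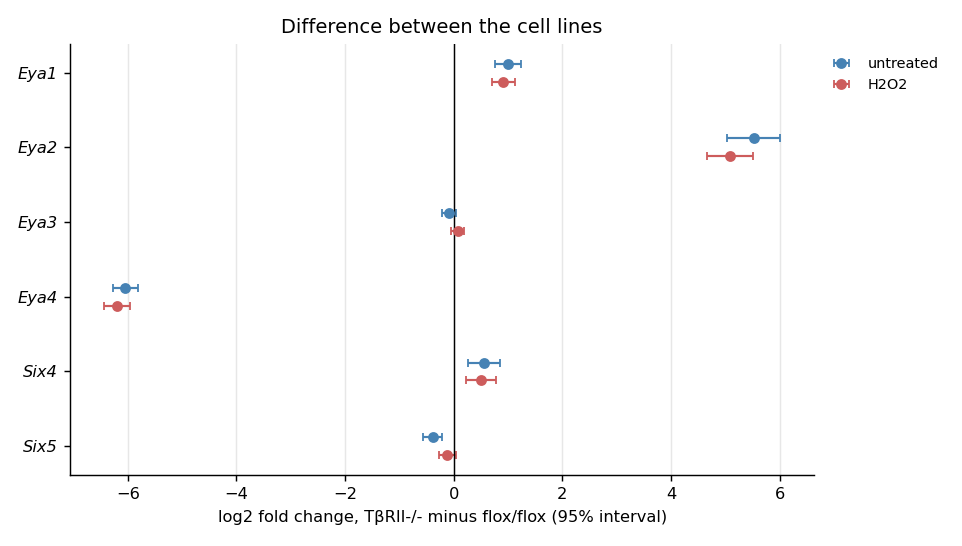
Log2 fold change between TβRII-/- and TβRIIflox/flox PT cells for 6 members, untreated and with H2O2. Bars are 95% intervals derived from edgeR's F statistic. Eya4 lies at -6.04 and -6.20 and Eya2 at 5.52 and 5.08, while the other genes lie between -0.39 and 1.002.

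The next comparison asked how these genes respond to oxidant stress, given as H2O2 in serum-free medium, within each genotype. A gene is said to rise or fall where edgeR's quasi-likelihood test gave a Benjamini-Hochberg adjusted p under 0.05 over all 12971 genes, and to be called where the change was also at least 1.5-fold. In TβRIIflox/flox PT cells, Eya1 and Six5 rose and Eya4 fell, 3 of 6 members against 41.6% of all genes. None of these changes reached 1.5-fold by edgeR or by DESeq2, against 8.24% of genes called. At an unadjusted p under 0.05 the count by edgeR was also 3 (49.0% of genes), and DESeq2 gave 3 at an adjusted p under 0.05. The median log2 change of the 6 members was 0.23, and that of all genes was 0.01.

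Eya1 rose in both genotypes. In TβRIIflox/flox PT cells it went from 173, 139 and 158 normalized counts to 217, 191 and 259, without overlap. The change was 0.50 ± 0.13 (log2, SE; adjusted p = 0.0022 by edgeR, 0.000125 to 0.0273 over the alternatives). It was 0.59 without replicate 1 of the untreated libraries and 0.60 without replicate 2 of those with H2O2, and passed 1.5-fold only then. In TβRII-/- PT cells it went from 312, 304 and 326 to 405, 487 and 355, a change of 0.41 ± 0.10 (adjusted p = 0.0022 by edgeR). Without replicate 2 of TβRII-/- PT cells with H2O2, the highest library, that change was 0.28 and the adjusted p by edgeR was 0.0521 (7.87e-05 to 0.0521 over the alternatives).

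Six5 also rose in both. In TβRIIflox/flox PT cells it went from 344, 365 and 367 normalized counts to 424, 431 and 419, a change of 0.24 ± 0.08 (log2, SE; adjusted p = 0.0184 by edgeR). The adjusted p was 0.0503 without replicate 1 of the untreated libraries, 0.0520 without replicate 2 of those with H2O2 and 0.0538 with reads summed over transcripts (0.0131 to 0.0538 over the alternatives). In TβRII-/- PT cells it went from 300.1, 272 and 252 to 407, 366 and 406, a change of 0.52 ± 0.08 (adjusted p = 1.15e-05 by edgeR). Both pairs of groups were without overlap. The change was larger by 0.27 ± 0.12 in TβRII-/- PT cells, a difference that did not pass the test (adjusted p = 0.152 by edgeR).

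Eya4 fell in TβRIIflox/flox PT cells, from 1947, 1796 and 1893 normalized counts to 1497, 1618 and 1649, by 0.24 on the log2 scale (SE 0.07, adjusted p = 0.0048 by edgeR). The highest treated library was below the lowest untreated one. With reads summed over transcripts the change was -0.25 with an adjusted p of 0.101 by edgeR (0.00106 to 0.101 over the alternatives). In TβRII-/- PT cells, at those few reads, it was -0.40 ± 0.24 (adjusted p = 0.185 by edgeR), the groups overlapped, and the value ran from -0.60 to -0.17 with 1 library left out. The small fall with H2O2 compares with a log2 difference of -6.04 between the untreated genotypes. Both comparisons share the untreated TβRIIflox/flox libraries.

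The other members did not pass the test in either genotype. Eya2 changed by 0.70 ± 0.52 (log2, SE; adjusted p = 0.293 by edgeR) in TβRIIflox/flox PT cells, where it had 2 to 10 reads, and this ran from 0.31 to 1.38 with 1 library left out. In TβRII-/- PT cells the change was 0.26 ± 0.12 (adjusted p = 0.0824), although the 3 libraries with H2O2 were above the 3 without. With only the groups compared in the fit, that change was 0.24 and its adjusted p was 0.0482 by edgeR (0.0482 to 0.307 over the alternatives). Eya3 changed by -0.12 ± 0.06 (adjusted p = 0.125) and 0.04 ± 0.06 (adjusted p = 0.692), with 95% intervals of -0.25 to 0.00 and -0.09 to 0.16. Summed over transcripts, the first of these had an adjusted p of 0.0381 by edgeR (0.0381 to 0.475 over the alternatives). Six4 changed by 0.21 ± 0.16 (adjusted p = 0.283) and 0.17 ± 0.13 (adjusted p = 0.334).

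In TβRII-/- PT cells, 2 of the 6 members rose, Eya1 and Six5, and none fell, against 39.6% of all genes past the same adjusted p. None was called by edgeR or DESeq2, against 8.33% of genes. At an unadjusted p under 0.05 the count by edgeR was 3 (47.4% of genes), the third being Eya2. For the difference between the H2O2 responses of the genotypes, 0 of 6 members passed by edgeR or by DESeq2, against 10.2% of genes, and 1, Six5, had an unadjusted p under 0.05 (23.7% of genes). The 95% intervals of that difference were -0.64 to 0.32 for Eya4, -0.41 to 0.24 for Eya1, -0.02 to 0.33 for Eya3 and -0.45 to 0.36 for Six4 on the log2 scale. That of Eya2 was wide, at -1.47 to 0.59.

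**Figure D4:**
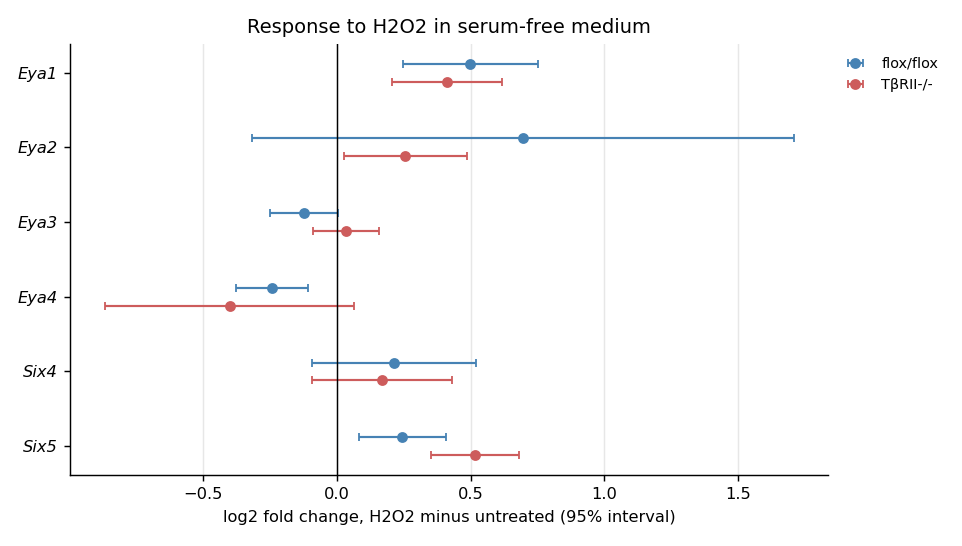
Log2 fold change with H2O2 in serum-free medium against untreated cells for 6 members, in TβRIIflox/flox and TβRII-/- PT cells. Bars are 95% intervals derived from edgeR's F statistic. Eya1 (0.50 and 0.41) and Six5 (0.24 and 0.52) lie above 0 in both genotypes, Eya4 is at -0.24 and -0.40, and every gene has intervals of the 2 genotypes that overlap.

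Other genes of the network were taken from a list of 35 partners, corepressors and kidney regulators, of which 22 entered the fit. Between untreated genotypes 3 were higher past the limits (Tle2, Tle4 and Wnt4) and 4 were lower (Gdnf, Lhx1, Osr1 and Skil), 7 of 22 against 28.0% of all genes. With H2O2 Tle5 joined the first group and H2ax the second, which makes 9 of 22 by edgeR against 30.7% of all genes. DESeq2 gave 8, with Tle5 just under 1.5-fold. Wnt4, which drives nephron progenitors to become epithelium, was at 2.10 to 10.02 normalized counts in untreated TβRIIflox/flox PT cells and at 603 to 667 in untreated TβRII-/- PT cells, a difference of 6.45 ± 0.19 (log2, SE). The Groucho family corepressors Tle2 and Tle4, which can silence Six-family targets, were higher by 1.12 ± 0.17 and 1.13 ± 0.15. Others of that family differed less, at -0.40 ± 0.08 for Tle1, -0.0030 ± 0.06 for Tle3 and 0.26 ± 0.06 for Tle5.

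The lower group held genes of early kidney development and a TGF-β corepressor. Osr1, a regulator of the earliest kidney mesenchyme, was at 226 to 250.4 normalized counts in untreated TβRIIflox/flox PT cells and at 43.9 to 55.2 in untreated TβRII-/- PT cells, a difference of -2.26 ± 0.15 (log2, SE). Gdnf, the ligand that attracts the ureteric bud and a known target of Eya1 and Six-family proteins, went from 37 to 62 reads per library to 1 read in each. Lhx1, an early regulator of the renal vesicle, went from 20 to 45 reads to 0 to 3. Skil, a relative of Dach1 and a target of TGF-β signaling, was at 2014 to 2219.7 and at 622 to 708, a difference of -1.66 ± 0.07. The difference for Ski was -0.58 ± 0.06. Pax2 and Pax8, which act with the network in nephron formation, were within 4510.3 to 6424 normalized counts in the untreated libraries and differed by -0.12 ± 0.07 and 0.26 ± 0.06.

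Genes listed in reviews as bound or regulated by Eya and Six-family proteins moved in both directions. Gdnf and Sall1 are in the network list as well, so each of them is counted in both lists. Of 11 such genes 9 entered the fit, and 2 were higher (Ccnd1 and Igfbp5) and 3 lower (Cdh11, Gdnf and Mycn) past the limits in untreated TβRII-/- PT cells, 5 of 9 against 28.0% of all genes. Ccnd1, the cyclin that starts the cell cycle, was at 1547 to 1735 normalized counts in untreated TβRIIflox/flox PT cells and at 9244 to 9584 in untreated TβRII-/- PT cells (2.54 ± 0.07 on the log2 scale). Igfbp5, an IGF-binding protein, was higher by 5.29 ± 0.11 and Mycn, a growth regulator, was lower, at -0.87 ± 0.09. Cdh11, a mesenchymal cadherin, was at 11684 to 14542 and at 1029 to 1276 normalized counts (-3.50 ± 0.08). The same 5 passed with H2O2, against 30.7%.

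**Figure D5:**
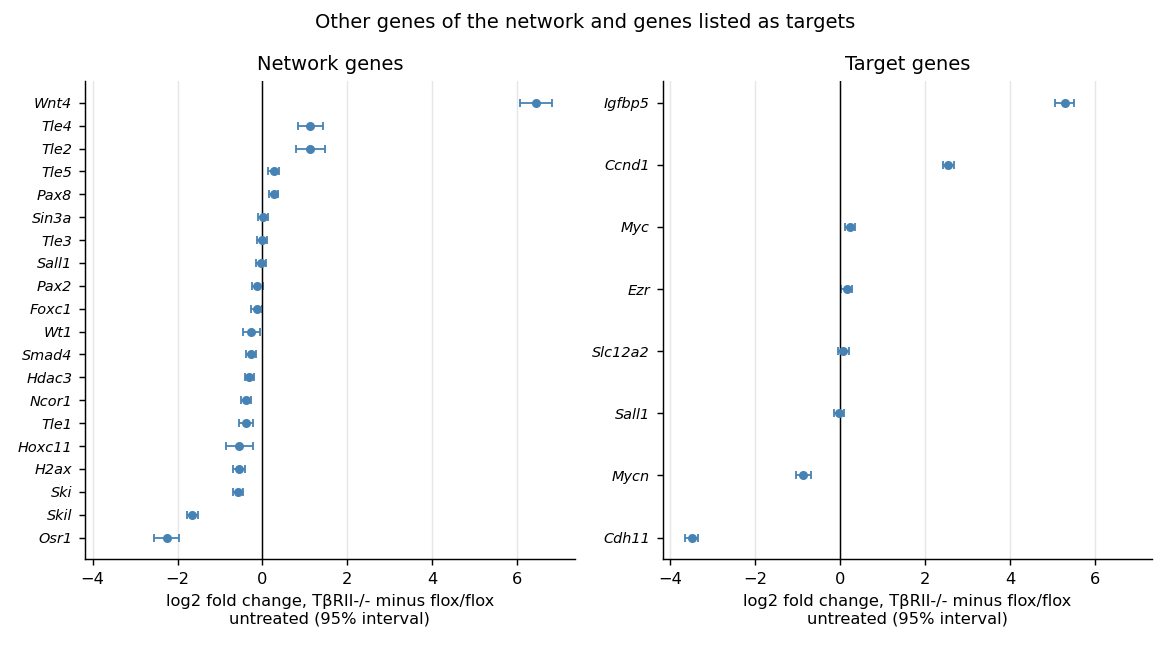
Log2 fold change between untreated TβRII-/- and TβRIIflox/flox PT cells. Genes are those of the network (left) and the listed targets (right) that entered the fit, with 95% intervals derived from edgeR's F statistic. Wnt4 (6.45) and Igfbp5 (5.29) stand highest and Cdh11 (-3.50) lowest, and Gdnf and Lhx1 are left out because they had at most 3 reads in each untreated TβRII-/- library.

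With H2O2, 3 of the 22 network genes rose and 6 fell in TβRIIflox/flox PT cells, against 41.6% of all genes in either direction. In TβRII-/- PT cells 8 rose and 3 fell, against 39.6%. Tle2 was called in both genotypes, at 1.34 ± 0.17 and 1.30 ± 0.13 (log2, SE; adjusted p = 2.01e-07 and 1.79e-09 by edgeR), against 8.24% and 8.33% of genes. Sall1, a zinc finger regulator of kidney development that Six-family proteins act on, rose by 0.32 ± 0.06 and 0.58 ± 0.06 (adjusted p = 0.000108 and 5.71e-09), just under 1.5-fold in the latter. It passed that limit without replicates 1 or 3 of untreated TβRII-/- PT cells or replicate 3 of those with H2O2. Pax8 and Smad4 fell in TβRIIflox/flox PT cells, by 0.32 and 0.35 on the log2 scale (adjusted p = 4.43e-05 and 1.50e-05).

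Of the 9 target genes in the fit, 4 rose and 3 fell in TβRIIflox/flox PT cells, against 41.6% of all genes in either direction. The counts were 2 and 3 in TβRII-/- PT cells, against 39.6%. Ccnd1 was the only one called in either, by edgeR and by DESeq2, against 8.24% and 8.33% of genes. It fell by 1.51 on the log2 scale in TβRIIflox/flox PT cells and by 0.92 in TβRII-/- PT cells (adjusted p = 2.80e-17 and 1.42e-13 by edgeR). Serum withdrawal and H2O2 cannot be told apart in these changes. Of the 22 network genes in the fit, the H2O2 responses of Pax2 and Tle5 differed between the genotypes by edgeR. Of the 9 target genes, those of Ccnd1 and Cdh11 did. The share over all genes was 10.2%.

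The 5 protein-coding genes with the pattern most like that of Eya4 across the 12 libraries were Prkd1, Cd200, Mn1, LINC03051 and Pcdhb16. LINC03051 is protein-coding in GENCODE M39 despite its symbol for a non-coding RNA. Likeness was the root mean square difference of log2 normalized counts after each gene's mean had been subtracted. It was 0.271 for Prkd1, 0.332 for Cd200, 0.375 for Mn1, 0.388 for LINC03051 and 0.395 for Pcdhb16, against a median of 3.04 over 12595 genes. Cd200, a membrane glycoprotein that dampens immune cells, had a mean of 3178 normalized counts in untreated TβRIIflox/flox PT cells and one of 54.9 in the untreated TβRII-/- line. Pcdhb16, a clustered protocadherin, had means of 1415 and 21.6. Mn1, a transcriptional coregulator, had means of 464 and 4.32, and Prkd1, a protein kinase, of 148 and 1.02. LINC03051 had means of 88.4 and 0.349. Prkd1 and LINC03051 were thus under 3 counts in TβRII-/- PT cells, where the prior count of 2 sets their likeness. As the libraries form 2 lines, these patterns amount mainly to 1 difference between lines.

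The large difference at Eya4 was not shared by the genes around it. Its 5 tested neighbours on either side span chr10:21882184-24598683 (GRCm38.p6), and their untreated genotype difference had a median of 0.31 (log2), with that of all genes at 0.01. The values ran from -2.31 for Ccn2, a known target of TGF-β signaling, to 2.75 for Vnn1. The nearest ones, Tbpl1 and Rps12, were at -0.21 and -0.27. The 10 neighbours of Eya2 had a median of 0.27 and ran from -4.00 for Cd40 to 0.42 for Sulf2. The nearest of them, Trp53rka and Zmynd8, were at 0.32 and 0.16.

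Markers of other cell types were set beside these results. Of 7 nephron progenitor markers, which include Six2 and Eya1, 3 or 4 were over 3 normalized counts, with Six2 and Meox1 at or under 3 in every group, and their sum was 408 to 489 in TβRIIflox/flox and 364 to 383 in TβRII-/- PT cells without treatment. With H2O2 the sums overlapped, within 422.6 to 540.2. The members of this list differed in both directions. Untreated means in TβRIIflox/flox and TβRII-/- PT cells were 238 and 49.6 for Osr1 and 49.4 and 0.990 for Gdnf. Eya1 was higher in the latter, at 157 and 314, as were Cited1 and Crym at a few counts. Fibroblast markers summed to 55.9 to 69.4 in the untreated TβRIIflox/flox line and to 16.5 to 29.3 in the TβRII-/- line, and to 76.4 to 96.3 and 40.6 to 50.7 with H2O2. Most of the untreated sums came from Col1a1 (means of 42.0 and 14.3) and Pdgfrb (16.3 and 2.41), with Lum at 0 throughout. Dcn went the other way, with means of 1.46 in TβRIIflox/flox and 5.51 in TβRII-/- PT cells untreated. With H2O2 the Dcn means were 2.86 and 16.6. Endothelial markers summed to 127 to 138 normalized counts in untreated TβRIIflox/flox PT cells and 464 to 586 in the untreated TβRII-/- line, nearly all from Kdr. With H2O2 they summed to 22.7 to 26.4 and to 39.3 to 62.6, and Pecam1 was at or under 3 in every group. Immune markers summed to 129 to 151 in the 6 TβRIIflox/flox libraries and to 222 to 273 in the 6 of TβRII-/- PT cells, nearly all from Cd68, with Adgre1 and Cd3e at 0. Distal nephron markers summed to at most 10.9. The part of these markers in the differences of Eya and Six-family genes was not tested.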

How the data were processed

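The authors trimmed reads with fastp and aligned them with STAR to GRCm38.p6, annotated by GENCODE M23. From featureCounts they deposited counts of reads for every transcript, in whole numbers and not normalized. A read is counted on each transcript it overlaps, so transcript totals were 51387170 to 69231661 per library. How strand and reads shared between genes were treated is not given in the sources used here. The labels name a Qiagen kit and the methods a Macherey-Nagel kit.

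Identifiers of transcripts were looked up in GENCODE M39 (104820 of 106332; the 1512 unmatched ones held 1.22% to 1.28% of counts and were left out). The transcript with the highest total stood for each gene, and lengths came from GENCODE M39. Groups came from the sample labels. Counts were fitted with edgeR 4.0.16 (R 4.3.3): TMM, filterByExpr, glmQLFit and glmQLFTest with 1 mean per group over all 12 libraries, and Benjamini-Hochberg adjustment over 12971 genes. Normalized counts were scaled to the mean effective library, and likeness to Eya4 used a prior count of 2. Contrasts compared the genotypes without and with H2O2, treated with untreated cells of each genotype, and the H2O2 responses between genotypes. The fits were tested on simulated data. Alternatives were DESeq2 1.42.0, DESeq2's size factors, other filters (none, or at least 10 counts in every library), only the groups compared, a replicate block, reads summed over transcripts, and each library left out in turn.

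Some genes of the network and target lists are not reported here and were left out of the counts over these lists, though not of the fits. The members, gene lists and tests were chosen with earlier results of these data known. Named genes were the 8 members, list genes with a mean of at least 100 normalized counts or the largest differences, the 5 genes most like Eya4, and its neighbours; Gdnf, Lhx1, Tle2 and the neighbours of Eya2 were named after their values were seen. Replicates were not duplicates of each other: the chi-square per gene between them was 3.64 to 12.7. Precision is limited by 3 libraries per group and, for Eya2 and Eya4 at their low levels, by counting error.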

Additional observations from a re-analysis of the deposited data

Results flagged for a closer look

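Only the members, the network and target genes and Tgfbr2 were screened here. Among them the response to H2O2 in serum-free medium differed between the genotypes for 5 genes, all outside the 8 members. The measure is edgeR's interaction term (log2, response in TβRII-/- minus response in TβRIIflox/flox PT cells). Over all 12971 genes tested, 10.2% passed the same adjusted p of 0.05. For Pax2 the difference was 0.64 ± 0.09 (SE, adjusted p = 1.94e-05), from responses of -0.16 in TβRIIflox/flox and 0.48 in TβRII-/- PT cells. For Tle5 it was 0.34 ± 0.09 (adjusted p = 0.0114; -0.31 and 0.03), and leaving out replicate 2 of untreated TβRIIflox/flox, replicate 3 of TβRIIflox/flox with H2O2 or replicate 1 of TβRII-/- PT cells with H2O2 took the adjusted p by edgeR to 0.0583, 0.0635 and 0.0533 (0.0024 to 0.0635 over the alternatives). For Ccnd1 it was 0.59 ± 0.09 (adjusted p = 6.03e-05; -1.51 and -0.92). For Cdh11 it was -0.81 ± 0.11 (adjusted p = 5.61e-06; 0.41 and -0.40), a fall in 1 line and a rise in the other. For Tgfbr2, whose transcript count includes the undeleted exons, it was -0.57 ± 0.09 (adjusted p = 7.85e-05; 0.70 and 0.13). None of the 6 members in the fit passed this test, and 1 had an unadjusted p under 0.05.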

How the results depend on the processing

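Over all alternatives the genotype difference of Eya4 ran from -6.28 to -5.86 (log2) untreated and from -6.40 to -5.99 with H2O2. The counts of members past both limits stayed at 0 for H2O2 in TβRII-/- PT cells and for the difference of responses. For H2O2 in TβRIIflox/flox PT cells the count was 0 to 1 when a library was left out, with Eya1 as that gene. Leaving out a library gave 1 to 2 network genes in TβRIIflox/flox PT cells (Lhx1 added without replicate 1 of the untreated libraries), 1 to 3 in TβRII-/- PT cells (Sall1 and, without replicate 1 of the untreated libraries, Hoxc11 added) and 1 to 2 target genes in TβRII-/- PT cells. With at least 10 counts in every library, 2 network and 2 target genes were called there, with Sall1, a gene of both lists, added to each. Values near 0 changed sign without some libraries: the difference of responses ran from -0.22 to 0.0112 for Eya1, -0.35 to 0.0792 for Eya4 and -0.12 to 0.0720 for Six4, none past the test. The genotype difference of Eya3 with H2O2 was -0.0059 without replicate 3 of TβRIIflox/flox PT cells with H2O2. Eya3 with H2O2 in TβRII-/- PT cells was -0.0117 with reads summed over transcripts; the cause was not tested. With the filter of at least 10 counts in every library Eya2 could not be fitted. The replicate numbers were not used to pair the samples. Deviations of libraries with 1 number correlated at -0.101 to 0.058, which shows no shared effect but cannot exclude pairing. With the number as a replicate block the Eya4 differences were -6.04 and -6.20, 0 members were called, and no other call changed.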
